A study of Mus musculus with 2112 samples.

Results

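Long-term hematopoietic stem cells (LT-HSC, labelled LT) of old and young mice were compared after in vitro stimulation with lipopolysaccharide (LPS) and Pam3CSK4. The cells described are the stimulated LT wells that held 1 cell and carried none of the submitters' quality labels fewGenes, pctTrans or plasma. Old mice 2, 3, 2-2 and 2-3 gave 34, 40, 24 and 26 such cells, and young mice 1, 2, 3, 2-1 and 2-3 gave 16, 16, 38, 31 and 24. They were 66.9% of the stimulated LT single-cell wells, and 17.7% of the 1408 single cells that passed the same rule among the 2046 single-cell wells of the series.

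The study sorted LT-HSC, short-term HSC (ST) and multipotent progenitors (MPP) from bone marrow, and made SMART-seq2 libraries from single cells and from pools of 100 cells. Stimulated cells were held for 2 h in stem cell medium with 100 ng/ml LPS and 1 µg/ml Pam3CSK4, and control cells were labelled unstimulated. The labels name the age groups only as old and young, and the age in months, the strain and the sex of the mice are not given in the sources used here. No transgene or mutation is named for any group. Old mice 2 and 3 and young mice 1, 2 and 3 were on plates 1 and 2 (plate set A), and old mice 2-2 and 2-3 and young mice 2-1 and 2-3 on plate 4 (plate set B). Unstimulated LT cells were measured from the same 4 old mice and from young mice 1, 2-1 and 2-3 (25 to 31 cells per old and 27 to 34 per young mouse passed the same rule).

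LT-HSC sit at the top of blood formation, divide rarely, and rebuild all blood lineages for the life of a transplanted animal. LPS is a ligand of Toll-like receptor 4 and Pam3CSK4 of Toll-like receptors 1 and 2, and both act through Myd88 on NF-κB, which turns on inhibitors such as Nfkbia and cytokine genes. With age the LT-HSC pool grows, yields fewer lymphoid cells, and is known for higher transcripts of adhesion and platelet genes such as Selp, Vwf and Clu.

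The counts of all cells of a mouse were added up, so that the mouse was the replicate. The sum of a mouse held 6622004 to 14400328 counts in the old and 5773775 to 15675985 in the young group. The median number of genes per cell was 2922 to 4074.5 over old mice and 3266 to 4094 over young mice. The rRNA precursor transcript Rn45s took 13.6 to 25.9% of the counts in old and 12.9 to 27.4% in young mice. The population label was checked against marker genes. Procr was at 438.7 ± 104.7 counts per 1000000 (CPM; SD, n = 4 old) and 134.3 ± 49.5 (n = 5 young), against 66.6 ± 26.6 and 49.7 ± 24.9 in stimulated MPP (all 27 sums scaled together). In ST cells Procr was at 278.95 CPM in old and 174.1 in young mice, so young LT cells did not stand above young ST cells for it. Hlf, a transcription factor of HSC, was at 19.6 and 52.2 CPM in old and young LT, 34.6 and 53.3 in ST and 17.8 and 25.9 in MPP, and did not mark old LT. Slamf1 was at 73.3 and 18.8 CPM in old and young LT and at 0.112 and 0.495 in MPP. Flt3, which marks MPP, was at 6.35 and 28.1 CPM in old and young LT, 93.6 and 79.3 in ST and 217.4 and 195.7 in MPP. Cd34, also a marker of MPP, was at 59.2 and 110.8 CPM in old and young LT, 283.5 and 402.03 in ST and 733.4 and 725.65 in MPP. Both were higher on average in young than in old LT, with overlap between mice, and their part in the results was not tested. Cd48 had no count in any LT or ST sum, so it did not set LT apart from ST. Of the lists for other cell types, 7 of 16 T and NK cell genes, 5 of 15 plasma and B cell genes (among them Ms4a1 and Pax5), 3 of 16 stroma and endothelium genes and 1 of 15 macrophage genes had no count in any of the 9 sums. The summed CPM of the plasma and B cell list was 477.8 to 673.7 in old and 316.6 to 427.8 in young mice, that of the stroma and endothelium list 123.5 to 222.4 and 270 to 420.9, that of the macrophage list 274.96 to 490 and 232.4 to 362.97, and that of the T and NK cell list 33.3 to 45.1 and 6.70 to 38.1. The first of these lists was higher and the second lower in every old mouse, and their part in the results was not tested.

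The genes Ehd3, Nupr1, Anxa1 and Hk2 stand for the age difference of these cells, and the 250 bases before their transcription starts are shown so that their transcripts can be set beside the promoter letters. The sequences are from RefSeq on mouse build GRCm38.p6, on the gene's strand and 5′ to 3′, and capitals mark a match to the STAT motif TTCNNNGAA. Ehd3 lies at chr17:73804591-73804840 (+ strand), Nupr1 at chr7:126625471-126625720 (- strand), Anxa1 at chr19:20390672-20390921 (- strand) and Hk2 at chr6:82774455-82774704 (- strand).
Ehd3: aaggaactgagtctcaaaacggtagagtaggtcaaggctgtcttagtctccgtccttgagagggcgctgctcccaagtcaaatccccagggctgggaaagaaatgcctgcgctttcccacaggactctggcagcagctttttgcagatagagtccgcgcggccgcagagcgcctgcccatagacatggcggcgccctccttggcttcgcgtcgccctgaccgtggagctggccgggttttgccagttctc
Nupr1: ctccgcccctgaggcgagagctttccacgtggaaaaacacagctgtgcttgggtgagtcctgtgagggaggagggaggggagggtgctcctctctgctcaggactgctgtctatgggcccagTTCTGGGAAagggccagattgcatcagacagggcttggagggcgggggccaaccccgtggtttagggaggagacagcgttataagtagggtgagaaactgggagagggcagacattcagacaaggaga
Anxa1: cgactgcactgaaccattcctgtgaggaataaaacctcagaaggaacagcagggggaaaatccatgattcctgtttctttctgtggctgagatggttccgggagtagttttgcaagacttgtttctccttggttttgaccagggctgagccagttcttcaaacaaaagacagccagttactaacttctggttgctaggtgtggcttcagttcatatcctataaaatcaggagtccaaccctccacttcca
Hk2: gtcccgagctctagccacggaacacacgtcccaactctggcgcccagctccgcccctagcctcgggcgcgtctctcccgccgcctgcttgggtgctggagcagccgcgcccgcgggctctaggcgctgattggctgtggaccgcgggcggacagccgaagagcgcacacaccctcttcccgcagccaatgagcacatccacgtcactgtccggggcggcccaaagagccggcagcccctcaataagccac
Nupr1 had 1 STAT match, shown in capitals, and the other 3 had none. None of the 4 held the AP-1 motif TGANTCA or the NF-κB consensus on either strand. Over the 9592 tested genes with a promoter in the table, 5.88% held the STAT motif, 4.46% the AP-1 motif and 4.55% the NF-κB consensus. Of the genes higher in old LT described next, 22 had a promoter, of which 3 held the STAT motif, 3 the AP-1 motif and 1 the NF-κB consensus. None of the 8 promoters of genes lower in old LT held any of them. These are matches of letters in one window and show no binding.

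Old and young stimulated LT cells differed in 41 of 12970 genes tested (0.316%) at an adjusted p under 0.05 (edgeR quasi-likelihood test, plate set as covariate, Benjamini-Hochberg adjustment over all genes). Of these, 29 genes (0.224%) were higher in old cells and 12 (0.0925%) lower, and 39 differed by at least 2-fold. In 39 of the 41 the old and young mice did not overlap, 28 with every old mouse above every young mouse and 11 with every old mouse below. Over all genes, 2.87% had every old mouse above and 1.00% every old mouse below. The genes higher in old cells included Ehd3, Nupr1, Anxa1, Hk2, Sdc4, Il4ra, Procr and Actg1, and those lower in old cells Syk, Inpp5d, Ptpn6, Sla and Kit. Without the cells labelled cycling, which were a smaller share in old mice (below), 19 genes passed, 14 higher and 5 lower, and 18 of them were among the 41. Leaving out 1 mouse at a time gave 21 to 55 genes. On the 9 stimulated sums alone, where each mouse entered once, 32 genes passed, and 24 of them were among the 41. Of 40 called genes tested in that fit 16 lost the call, among them Ptpn6, Sla, Parvg, Eef2k, Dstn, Zyx, Aldh1a1, Matn4 and Arap3. In plate set A alone (2 old, 3 young mice) and plate set B alone (2 and 2) no gene passed in edgeR's test, with 5.33% and 8.30% of genes at an unadjusted p under 0.05. Summed counts do not tell more cells with a transcript from more transcript per cell. The detection shares given further on describe both but do not fully separate them.

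Ehd3 encodes an endocytic recycling ATPase. Its levels were 313.1, 440, 567.1 and 969 CPM in old mice 2, 3, 2-2 and 2-3, and 47.3, 80.1, 48.7, 51.7 and 71.5 CPM in young mice 1, 2, 3, 2-1 and 2-3. Every old mouse was above every young mouse, with a log2 fold change of 3.12 ± 0.29 (SE) and an edgeR adjusted p of 0.000105. Nupr1 encodes a small chromatin-associated stress protein. It was at 260, 225.03, 239.1 and 161.6 CPM in the old mice and at 99.7, 42.9, 39.98, 23.8 and 39.4 CPM in the young mice in the same order. The lowest old mouse lay above the highest, young mouse 1, and the log2 fold change was 2.29 ± 0.30 (edgeR adjusted p = 0.00205).

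Anxa1 encodes annexin A1, a phospholipid-binding protein known for limiting inflammation. Its levels were 437.7, 868, 567.3 and 663.8 CPM in the old mice and 42.04, 18.7, 89.9, 94.5 and 132.9 CPM in the young mice. The groups did not overlap (log2 fold change 3.07 ± 0.45, edgeR adjusted p = 0.00383). Hk2 encodes hexokinase 2, which commits glucose to glycolysis. It was at 131.7, 333.8, 330.9 and 387.9 CPM in the old mice and at 1.82, 28.4, 22.7, 11.8 and 28.7 CPM in the young mice. The young mouse with the least Hk2 was mouse 1, and the log2 fold change was 3.91 ± 0.58 (edgeR adjusted p = 0.00404). All 4 genes passed without any 1 of the 9 mice and without the cells labelled cycling.

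**Figure D1:**
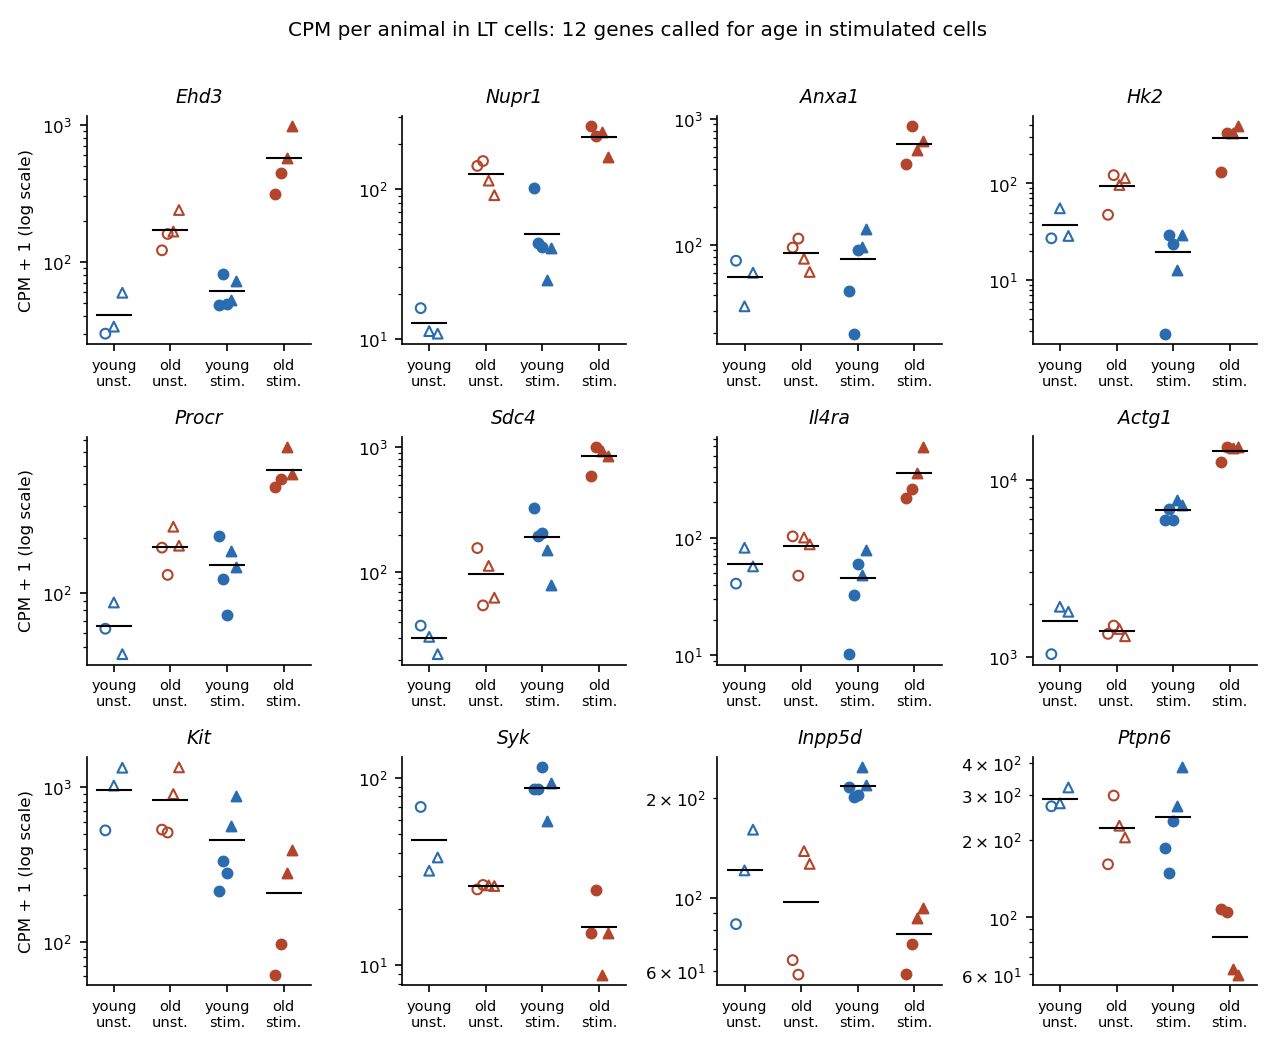
Levels of 12 genes in LT cells, as CPM + 1 on a log axis, with 1 symbol per mouse (circles plate set A, triangles plate set B, open unstimulated, filled stimulated) and a black bar for the mean. In the filled symbols, every old mouse lies above every young mouse for Ehd3, Nupr1, Anxa1, Hk2, Procr, Sdc4, Il4ra and Actg1 and below for Syk, Inpp5d and Ptpn6, while Kit overlaps.

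Sdc4, a heparan sulfate proteoglycan of focal adhesions, was at 588.97, 998, 922 and 843 CPM in the old mice and at 324.7, 193.2, 205.4, 150 and 78.01 CPM in the young mice, with no overlap (log2 fold change 2.27 ± 0.35, edgeR adjusted p = 0.00632). Il4ra, the alpha chain of the interleukin 4 and interleukin 13 receptors, was at 217.5, 259.5, 352.3 and 593.99 CPM in the old mice and at 9.22, 31.3, 59.2, 47.2 and 77.6 CPM in the young mice. The Il4ra groups were far apart (2.90 ± 0.41, edgeR adjusted p = 0.00340), though the call was lost without the cells labelled cycling (adjusted p = 0.0821). Procr, the endothelial protein C receptor used to purify HSC, was at 384.8, 425.04, 638.6 and 453.3 CPM in the old mice and at 205.4, 118.1, 74.2, 170 and 137.3 CPM in the young mice (1.71 ± 0.27, edgeR adjusted p = 0.00828). Procr did not pass without any single one of old mice 2, 3, 2-2 and 2-3 and young mouse 2-3, with adjusted p up to 0.0749, and did pass without cycling cells. Kit, the receptor of stem cell factor, went the other way, with 60.5, 96.4, 277.9 and 390 CPM in the old mice and between 213.3 and 881 CPM in the young mice. Old and young mice overlapped for Kit, which was lower in the old mice within each plate set, and the log2 fold change in the fit with plate set was -1.43 ± 0.25 (edgeR adjusted p = 0.0141). Without the plate set as covariate Kit did not pass (adjusted p = 0.463), nor without old mouse 2, old mouse 3 or young mouse 2-3 (up to 0.0846).

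Actg1, cytoplasmic gamma actin, was at 12593 to 15384 CPM in the old mice and at 5933 to 7716 CPM in the young mice, a log2 fold change of 1.10 ± 0.12 (edgeR adjusted p = 0.000836). All old values lay above the young ones, and old mouse 2 was the lowest of the old. Wdr1, which speeds actin filament disassembly with cofilin (0.88 ± 0.12, adjusted p = 0.00278), and Dstn, an actin-severing protein (1.49 ± 0.25, 0.0128), were also higher in edgeR's test. Dstn lost the call without old mouse 2, 2-2 or 3, without young mouse 2-1 or 2-3 (adjusted p up to 0.108) and without cycling cells. Zyx, zyxin of focal adhesions, was higher too (1.01 ± 0.19, edgeR adjusted p = 0.0294), but its call held without only 1 of the 9 mice, young mouse 3, where the highest adjusted p of the others was 0.155. The Zyx call was also lost without cycling cells. Lims1, an adaptor of integrin-linked kinase (-1.20 ± 0.23, edgeR adjusted p = 0.0345), and Parvg, gamma-parvin of the same complex (-1.60 ± 0.27, 0.0141), were lower. Both lost the call without cycling cells or without single mice (adjusted p up to 0.117 for Lims1 and 0.0809 for Parvg).

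Syk, a tyrosine kinase that acts downstream of immune receptors and integrins, was at 13.9, 24.3, 7.93 and 13.9 CPM in the old mice and at 86.7, 85.9, 113.1, 58.04 and 92.9 CPM in the young mice. The highest old mouse was below the lowest young mouse (log2 fold change -2.53 ± 0.37, edgeR adjusted p = 0.00383), and the adjusted p was 0.0583 without cycling cells. Inpp5d, the lipid phosphatase SHIP1, was at 57.8, 71.6, 85.5 and 92.1 CPM in the old mice and at 215.2, 200.9, 203.5, 246.5 and 217.5 CPM in the young mice. Young Inpp5d values were nearly equal and all above the old ones (-1.58 ± 0.22, edgeR adjusted p = 0.00278). Ptpn6, the tyrosine phosphatase SHP-1, was at 106.8, 104.4, 62.1 and 58.9 CPM in the old mice and at 186.03, 147.7, 236.7, 270.8 and 382.8 CPM in the young mice (-1.55 ± 0.30, edgeR adjusted p = 0.0294). Its call was lost without old mouse 2-2 or 2-3 or young mouse 3, 2-1 or 2-3 (adjusted p up to 0.133) and without cycling cells. Sla, a Src-like adaptor that dampens receptor signalling, was at 0.792, 4.86, 0 and 0 CPM in the old mice and at 84.9, 43.6, 75.8, 13.6 and 50.4 CPM in the young mice (edgeR adjusted p = 0.0213). Sla was thus near 0 in every old mouse. Its call was lost without old mouse 2, 2-2 or 2-3 or young mouse 2-3 (up to 0.120) and without cycling cells. Serinc3, a membrane protein, was lower by -1.28 ± 0.19 on the log2 scale (edgeR adjusted p = 0.00404), with 94.3 to 177.3 CPM in the old mice against 330.96 to 400.9 CPM in the young mice. Serinc3 was also lower in old ST and MPP cells, as given further on. Wdfy1, known as an adaptor of Toll-like receptors 3 and 4 (-2.16 ± 0.40, edgeR adjusted p = 0.0221), and Eef2k, the kinase of elongation factor 2 (-1.93 ± 0.35, 0.0209), were lower as well, and each lost the call without single mice (up to 0.108 and 0.110). Wdfy1 also lost it without cycling cells.

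**Figure D2:**
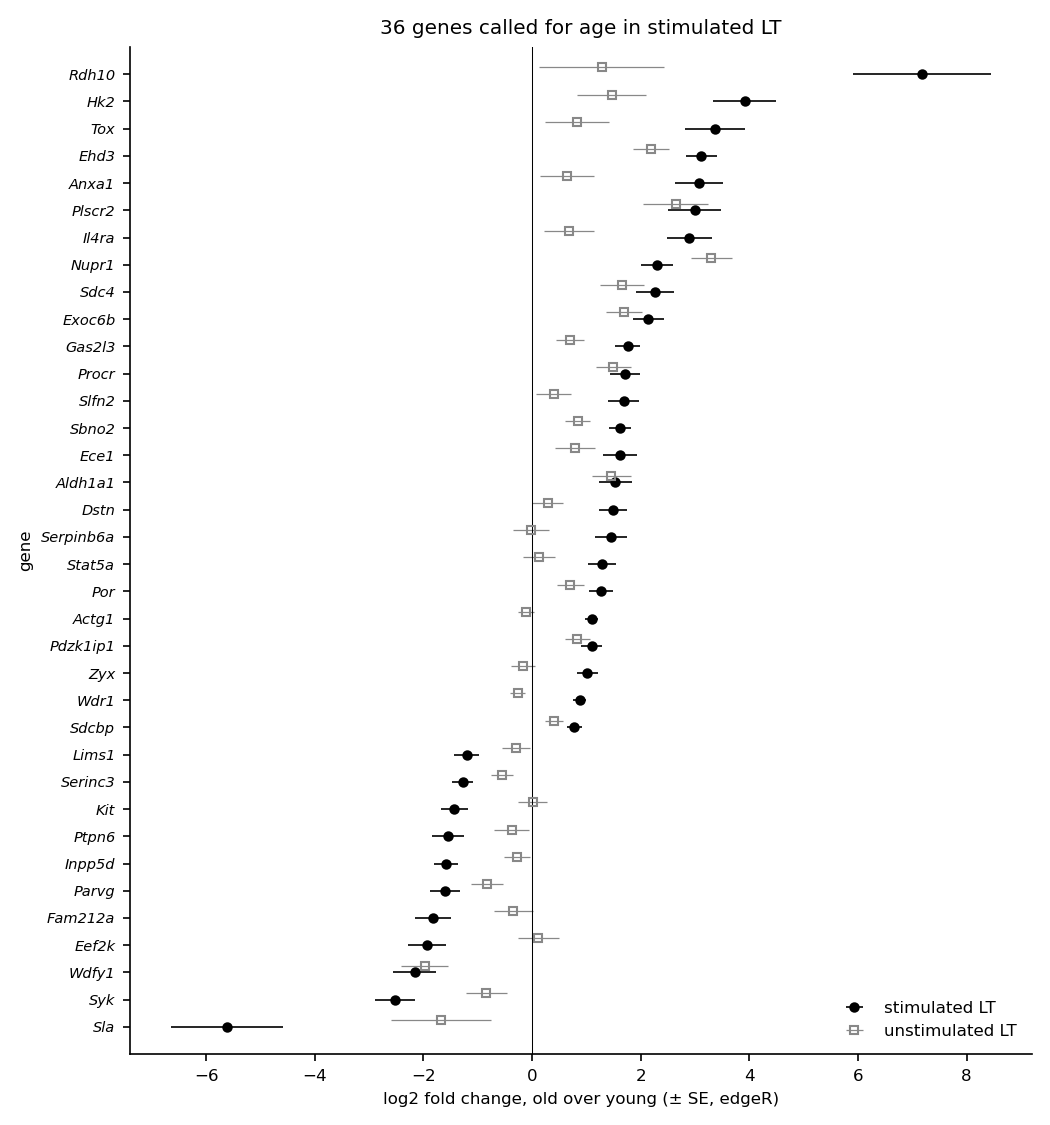
Log2 fold changes of old over young LT cells with their standard errors for the 36 called genes with more than 3 counts in both age groups, in stimulated (filled circles) and unstimulated cells (open squares). The stimulated values run from -5.62 for Sla to 7.18 for Rdh10, which had 5 counts in the young cells, and the unstimulated value of Hk2, 1.47, lies below its stimulated 3.91.

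A few called genes rested on almost no counts in one group. Matn4, a matrix protein, had 2 counts in all young cells, and the old to young ratio was 602.1 with a 95% counting interval of 166.3 to 4978. Poll, DNA polymerase lambda, had 2 young counts as well (ratio 394.1, 108.7 to 3261). The Matn4 call was lost without any 1 of 7 mice, all but old mouse 2 and young mouse 1, and without cycling cells. Poll kept its call without any 1 mouse, but lost it without cycling cells and with cells labelled fewGenes or pctTrans kept. In the other direction Arap3, a GTPase-activating protein, had 2 counts in all old cells (ratio 0.00380, 0.000459 to 0.0138), and its call was lost without any 1 of 8 mice, all but young mouse 3, and without cycling cells. After thinning of every cell to 50000 counts, Matn4 was seen in 12 old cells and 1 young cell and Poll in 8 and 0. These intervals cover counting error only, since the reads carry no molecular identifiers and copies of a molecule count again.

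The genes were then read by lists. Over all genes tested the median log2 fold change was 0.04, and 6801 of 12970 were positive. The HSC ageing list, 36 genes, had a median of 2.23 with 35 positive, 4 passing (Ehd3, Nupr1, Plscr2 and Aldh1a1, all higher) and 17 with every old mouse above every young mouse. Plscr2, a phospholipid scramblase, had a log2 fold change of 2.99 ± 0.49 (edgeR adjusted p = 0.00889, and up to 0.0690 without old mouse 2 or 3), and Aldh1a1, a retinaldehyde dehydrogenase, 1.54 ± 0.30 (0.0366), with overlap between groups and adjusted p up to 0.154 without 1 mouse. Selp, P-selectin, was at 260 to 1072 CPM in old and 0 to 72.5 in young mice but did not pass (3.95 ± 1.09, edgeR adjusted p = 0.153). Vwf, von Willebrand factor (1.59 ± 0.35, 0.0727), and Clu, clusterin (3.31 ± 1.196, 0.321), did not pass either. The summed CPM of the list was 8522 to 14208 in the old and 2065 to 3263 in the young mice. This list was drawn up with knowledge of earlier results of these data, so it gives no independent evidence of its direction.

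The list of HSC identity genes, 30 members, had a median of 0.01, with Procr and Pdzk1ip1 higher and Kit lower. Pdzk1ip1 (1.10 ± 0.19, edgeR adjusted p = 0.0158) lost its call without cycling cells or single mice (up to 0.136). The NF-κB and Toll-like receptor response list, 38 genes, had a median of 0.36 with 28 positive. Of these, 3 passed: Sdc4, Slfn2, a Schlafen family gene (1.69 ± 0.28, edgeR adjusted p = 0.0110), and Stat5a, a transcription factor downstream of cytokine receptors (1.29 ± 0.25, 0.0366). Slfn2 lost the call without old mouse 2 (adjusted p = 0.0912), and Stat5a without any 1 of 8 mice, all but old mouse 2 (up to 0.217). Both also lost it without cycling cells. Sbno2, an interleukin 10 and STAT3 target gene outside the lists, was at 704.2 to 1328 CPM in the old mice and at 226.5 to 412.1 CPM in the young mice (1.62 ± 0.20, edgeR adjusted p = 0.00145).

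The response itself was present in both ages. Of the 38 response genes, 30 rose with stimulation in old cells and 27 in young cells, against 7.26% and 3.99% of all genes that rose in edgeR's test. The inhibitor of NF-κB, Nfkbia, was at 1995 ± 448.1 CPM in stimulated old (n = 4) and 1421 ± 128.5 in stimulated young cells (n = 5), and did not pass between ages (0.42 ± 0.21, edgeR adjusted p = 0.511). The receptors and adaptor of the 2 ligands did not pass either: log2 fold changes were 0.11 ± 1.02 for Tlr2, 1.12 ± 1.36 for Tlr4, 1.01 ± 1.25 for Cd14 and 0.86 ± 0.41 for Myd88, with edgeR adjusted p between 0.491 and 0.991. Tlr1 had no count in any of the 9 sums and was not tested. The signs of Tlr2 and Tlr4 changed with single mice or with TPM. Of the cytokine list, 0 of 24 passed (median 0.10), with Tnf at 0 to 31.2 CPM in old and 0 to 47.6 in young mice and Il6 at 8.96 to 39.5 and 3.63 to 28.6. Il12a, a subunit of interleukin 12, and Ltb, lymphotoxin beta, were at 4.95 to 17.98 and 22.95 to 99.02 CPM in old against 28.3 to 86.9 and 187.3 to 328.03 CPM in young mice, without overlap, but did not pass (edgeR adjusted p = 0.213 and 0.108). Ikzf1, the lymphoid transcription factor Ikaros, was at 19.6 to 42.4 against 56.5 to 125.3 CPM (-1.51 ± 0.34, 0.0865).

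Other lists had few or no passing members. Of 23 glycolysis and hypoxia genes only Hk2 passed (list median 0.19), and of 13 annexin and S100 genes only Anxa1 (0.67). None passed among 27 immediate early genes (median 0.74), 17 STAT3 and SOCS genes (0.50), 33 interferon genes (0.10), 23 genes of the Toll-like receptor pathway (0.32), 41 cell cycle genes (-0.54), 24 oxidative phosphorylation genes (-0.21) or 25 ribosomal protein genes (0.19). Likewise 0 of 21 megakaryocyte and platelet genes (0.13), 12 myeloid (0.31), 10 lymphoid (0.35), 9 erythroid (-1.94) and 18 heat shock genes (0.48) passed.

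Before stimulation the ages already differed in some of these genes. In unstimulated LT cells 8 of 12970 genes passed (0.0617%; 939 at an unadjusted p under 0.05), and 2 of them, Ehd3 and Nupr1, were among the 41. Below the cut-off more was shared. Of the 41 genes, 20 had an unadjusted p under 0.05 in edgeR's test of unstimulated cells, against 7.24% of all genes. The sign was the same as in stimulated cells for 34 of the 41, while the share over all genes was not counted. Unstimulated Ehd3 was at 120, 165.1, 237.5 and 158.6 CPM in old mice 2, 2-2, 2-3 and 3 and at 28.98, 32.7 and 58.6 CPM in the young mice (log2 fold change 2.18, edgeR adjusted p = 0.0169). Unstimulated Nupr1 was at 89.7 to 152.3 CPM in old and 9.85 to 15.1 CPM in young mice (3.30, 0.00185). The other 6 were Itgb3, an integrin of platelets (2.29, edgeR adjusted p = 0.00237), the AP-1 genes Jun (3.96, 0.00312) and Junb (2.10, 0.0342), and Coq10b, Cks2 and Kpna2, which were lower in old cells. Cells labelled cycling were 6.45, 13.8, 4 and 12.9% of the unstimulated LT cells in old mice 2, 3, 2-2 and 2-3 and 50, 41.4 and 62.96% in young mice 1, 2-1 and 2-3. Without them 3 genes passed, all higher in old cells, and only 2 of these were among the 8. Coq10b, Cks2 and Kpna2 thus lost the call, and of the 5 genes that were higher only 2 kept it. Whether these 2 were Ehd3 and Nupr1 is not given here. Jun did not pass in stimulated cells (0.93, edgeR adjusted p = 0.368). Anxa1 and Hk2 did not pass in unstimulated cells (0.65 and 1.47, edgeR adjusted p = 0.979 and 0.630). Anxa1 rose with stimulation in old cells (2.89, adjusted p = 0.000839) and had a value of 0.47 (0.670) in young cells, while the difference between these responses was 2.42 and did not pass (0.505).

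The test of the difference itself passed for 1 of 12970 genes (0.00771%; 884 at an unadjusted p under 0.05). This was Coq10b, a coenzyme Q binding protein of mitochondria, at 100.9 ± 29.5 CPM in stimulated old and 53.6 ± 21.2 in stimulated young cells, but at 0.0262 and 6.86 CPM in unstimulated cells (7.57 ± 1.07 on the log2 scale, edgeR adjusted p = 0.0333). The Coq10b call was lost without any 1 of 8 of the 9 mice, all but young mouse 1, and without cycling cells. Actg1 and Wdr1 came next with differences of 1.21 and 1.15 and an adjusted p of 0.0509 each. Fitted on the 7 mice with both treatments, no gene passed in edgeR's test with the mouse as a block (5.12% at an unadjusted p under 0.05) nor without it (7.38%).

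The sums were set beside the share of cells with at least 1 count after every cell was thinned to 50000 counts. In this step 1 old and 3 young cells were shallower and were left out. Ehd3 was seen in 55.9, 51.3, 58.3 and 57.7% of cells of old mice 2, 3, 2-2 and 2-3 and in 20, 26.7, 15.8, 12.9 and 17.4% of cells of young mice 1, 2, 3, 2-1 and 2-3. Hk2 was seen in 52.9, 53.8, 45.8 and 69.2% of old and in 0, 33.3, 13.2, 9.68 and 21.7% of young cells. For both genes every old mouse lay above every young mouse, and the old mice lay closer together for Ehd3 than for Hk2. Nupr1 was seen in 77.1 ± 6.94% of old cells (SD over 4 mice) and 35.2 ± 6.38% of young cells (5 mice), and Anxa1 in 60.9 ± 7.58% and 33.03 ± 9.95%. Selp differed most among the ageing genes named, with 59.6 ± 11.4% of old and 7.9 ± 5.52% of young cells. In the other direction Syk was seen in 19.04 ± 8.12% of old and 53.6 ± 14.8% of young cells, Inpp5d in 44.9 ± 12.5% and 72.8 ± 8.53%, and Il12a in 7.5 ± 4.09% and 29.3 ± 4.59%. Nfkbia was seen in nearly every cell of both ages, 99.4% and 97.3%.

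Of 52 named genes the shares of old and young mice did not overlap in 25, with 15 higher and 10 lower in old mice. Over all 12970 genes the same was true of 2.37% in the higher and 1.06% in the lower direction. As many of the 52 were chosen for their sums, which hold the same counts, these shares are given without a test. Over all genes no share passed an exact permutation test after adjustment (smallest adjusted p = 0.408, smallest p the design allows 0.00794, 1047 genes at an unadjusted p under 0.05).

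**Figure D3:**
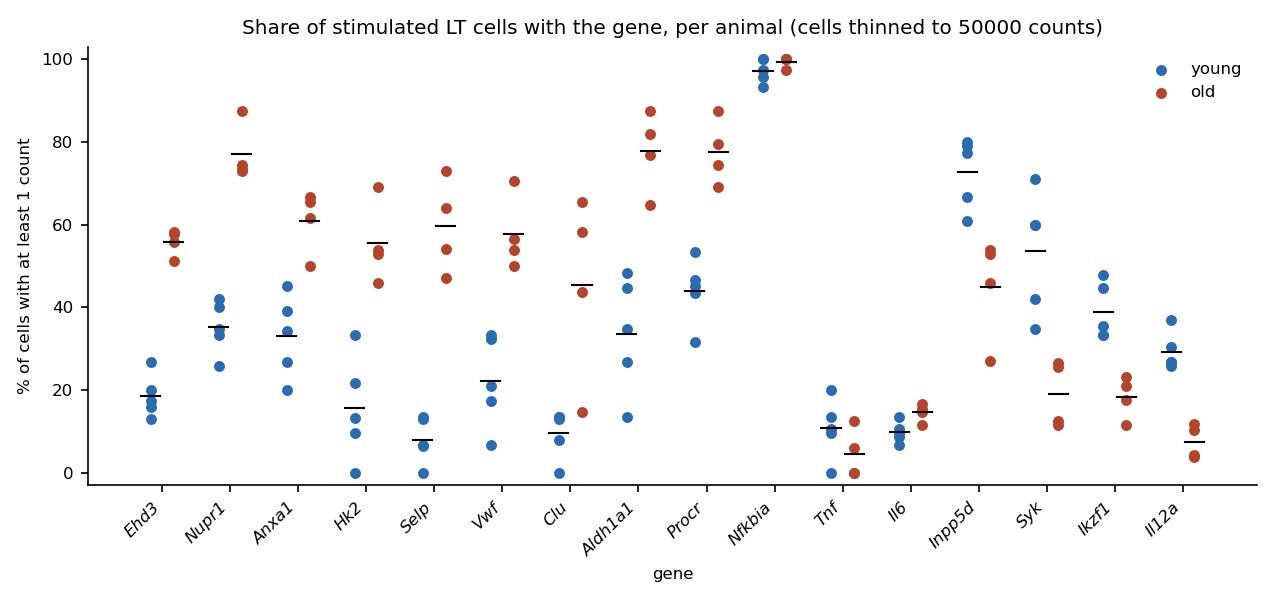
Share of stimulated LT cells with at least 1 count of 16 genes, in percent, after thinning to 50000 counts, with 1 symbol per mouse. Old mice sit above young mice for Ehd3, Nupr1, Hk2, Anxa1, Selp and Vwf, below for Syk, Inpp5d and Il12a, and together near 100% for Nfkbia.

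The log2 ratio of the mean thinned counts of old over young mice was split into 2 parts. One was the log2 ratio of the mean share of positive cells, and the remainder is called the level per positive cell. A higher level in every cell also raises the share of cells with at least 1 count. The parts therefore describe the ratio and do not tell more positive cells from more transcript per cell. For Ehd3 the log2 ratio of old over young was 1.59 for the share and 1.35 for the level per positive cell, where positive old cells held 43.2 and positive young cells 17.3 counts of 50000. For Hk2 the values were 1.83 and 1.74, for Nupr1 1.13 and 1.03. Anxa1 differed more in the level (1.84) than in the share (0.88), as did Slfn2 (1.13 and 0.36). In Selp (0.75 for the level and 2.92 for the share), Vwf (0.08 and 1.38) and Aldh1a1 (0.28 and 1.21) the share was the larger part. The small value of Vwf has no firm direction, as the count in positive cells, averaged over mice, was 23.1 in old and 29.4 in young mice. Of the 39 called genes with positive cells in both ages, 17 had the larger part in the share, and 38 had both parts in the same direction. The squared coefficient of variation over cells, which falls as a mean rises, was lower in old cells for 28 of 28 higher genes and higher in old cells for 11 of 11 lower genes.

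Single cells carried more members of the ageing list in every old mouse. Of 36 members, an old cell held 12.5, 13.9, 14.7 and 13.4 on average in mice 2, 3, 2-2 and 2-3, and a young cell 6, 6.27, 5.95, 7.16 and 5.17 in mice 1, 2, 3, 2-1 and 2-3. The SD over cells of a mouse was 3.64 ± 0.293 in old and 2.57 ± 0.444 in young mice, without overlap. Of 38 response genes, an old cell held 22.5 ± 1.03 and a young cell 20.8 ± 0.466, with overlap. The SD over cells of this count was 3.25, 4.18, 3.26 and 3.21 in the old mice and 5.80, 6.96, 4.47, 4.46 and 4.56 in the young mice. These SDs are not set relative to the means, which for the ageing list were higher in old mice. For the response list the median cell held 21 to 23 genes in every mouse, and the lowest cell held 13, 5, 17 and 14 in the old mice and 4, 4, 6, 9 and 4 in the young mice. As the lists were chosen with results known, no test is given.

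**Figure D4:**
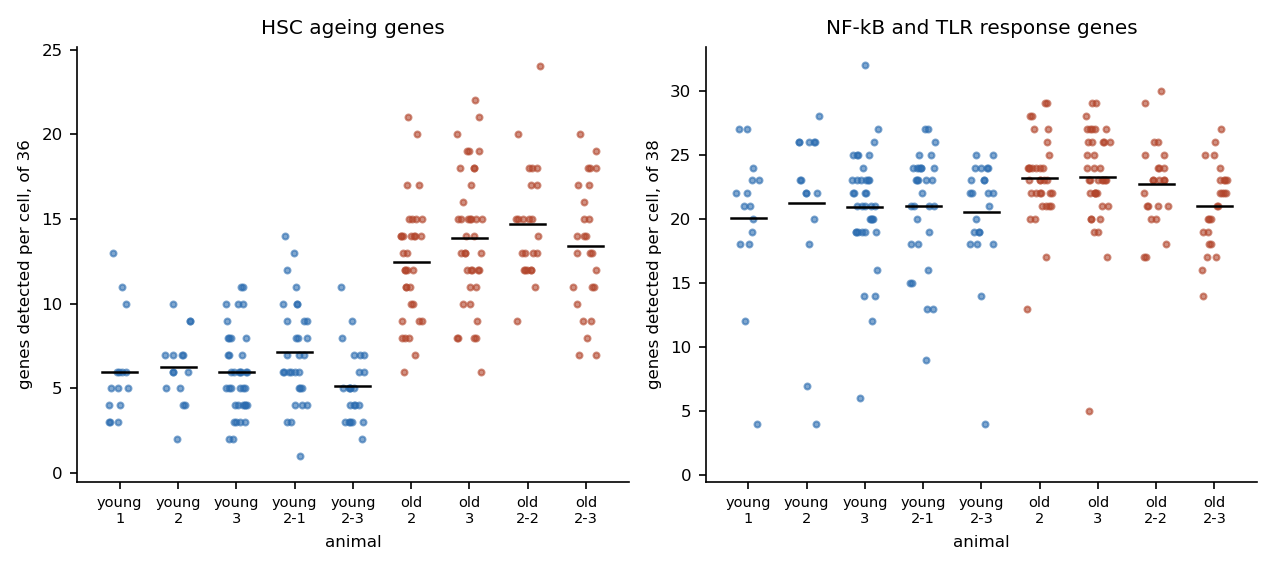
Number of HSC ageing list genes (of 36, left) and of genes on the response list (of 38, right) with at least 1 count in each stimulated LT cell, 1 column per mouse. Old mice average 13.6 ageing genes per cell and young mice 6.11, while response genes average 22.5 and 20.8, and the lowest cell of a mouse holds 5 to 17 of them in old and 4 to 9 in young mice.

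Measures over all genes differed less. The mean pairwise correlation between cells of a mouse was 0.385 ± 0.0278 in old and 0.355 ± 0.0186 in young mice (exact permutation test, two-sided, p = 0.0952, adjusted over 5 measures 0.238). Within plate sets the difference of old minus young was 0.0423 in set A and 0.0196 in set B. Cells labelled cycling by the submitters were 14.7, 5.00, 12.5 and 3.85% of cells in the old mice and 25, 25, 26.3, 25.8 and 12.5% in the young mice. The groups overlapped by young mouse 2-3 (exact permutation test, two-sided, p = 0.0317, adjusted 0.159), with differences of -15.6 percentage points in set A and -11.0 in set B. The number of genes per thinned cell was 2952 ± 357.9 in old and 2887 ± 276.04 in young mice (p = 0.754, the same exact test).

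Pools of 100 stimulated LT cells gave other cells and libraries of 7 of the 9 mice, 4 old and 3 young, with 41657 counts in the shallowest and 442438 in the deepest of the 8 pool wells. In edgeR's test 11 of 1187 genes passed (0.927%; 100 at an unadjusted p under 0.05), and the share of genes with the same sign as in single cells was 67.4% over all 1187. Of the 41 genes called in single cells 24 could be tested in pools, and 24 had the same sign. Ehd3 was at 441.5, 292.3, 260 and 398.8 CPM in the pools of old mice 2, 3, 2-2 and 2-3 and at 23.1, 0 and 0 CPM in those of young mice 2-1, 2-3 and 3 (5.00 ± 0.91, edgeR adjusted p = 0.00340). Procr was at 431.9, 465.1, 427.2 and 534.9 against 80.7, 35.6 and 35.1 CPM (2.96 ± 0.64, 0.0175). The old pools were above the young pools for both genes. Anxa1 (2.47 ± 0.65, edgeR adjusted p = 0.0800), Hk2 (4.59 ± 1.25, 0.0903) and Nupr1 (1.74 ± 0.68, 0.356) did not pass, though no old pool was below a young pool. Selp passed in pools (3.84 ± 0.76, 0.00738), as did Ptgs2, the prostaglandin synthase cyclooxygenase 2 (3.53 ± 0.64, 0.00340), and Tm4sf1, a tetraspanin-like surface protein (3.56 ± 0.56, 0.00144), all higher in old pools. In single cells Tm4sf1 (2.80 ± 0.69, edgeR adjusted p = 0.109) and Ptgs2 (2.09 ± 0.42, 0.0590) had not passed. In pools, fewer cells of a type and less RNA per cell cannot be told apart. Leaving out 1 mouse gave 4 to 17 genes, and leaving out the second, deep but gene-poor pool of old mouse 2 gave 17.

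**Figure D5:**
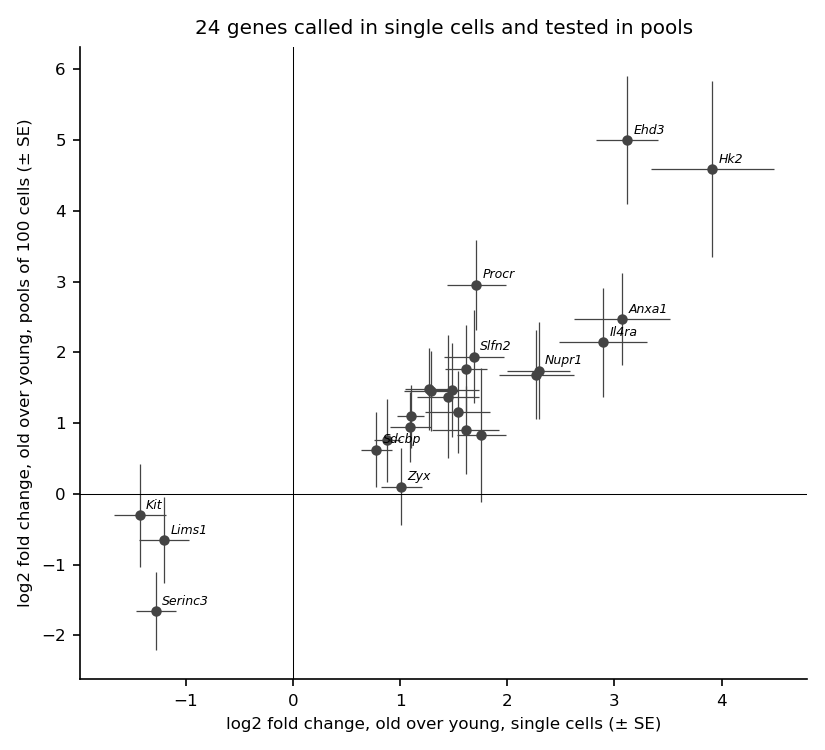
Log2 fold change of old over young in single cells (x axis) and in pools of 100 cells (y axis), each with its SE, for the 24 genes called in single cells and tested in pools. All 24 points lie in the quadrants of equal sign, and Ehd3 has the highest pool value, 5.00.

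The age difference of LT cells was set against that of stimulated MPP and ST cells of the same mice. The difference between LT and MPP passed in 3 of 12739 genes (0.0235%; 907 at an unadjusted p under 0.05) and that between LT and ST in 2 (0.0157%; 927). Plac8, a gene of lymphoid and myeloid progenitors, was at 4.03 and 127.8 CPM in old and young LT and at 399.5 and 452.3 CPM in MPP (difference -4.89 ± 0.76, edgeR adjusted p = 0.0123). Smim3 was at 203.2 and 55.98 CPM in LT and at 86.4 and 139.2 CPM in MPP (2.55 ± 0.43, 0.0155). The third was Slc35d3, a platelet granule transporter, which had 1 count in old LT and was at 23.96 CPM in young LT and at 49.5 and 44.9 in MPP. In edgeR's test no gene passed against MPP without old mouse 2, old mouse 2-3, young mouse 3 or young mouse 2-3 (5.96 to 6.79% at an unadjusted p under 0.05). Against ST, Syk was at 13.9 and 82.9 CPM in old and young LT and at 80.97 and 84.04 CPM in ST (-2.67 ± 0.44, edgeR adjusted p = 0.0128). The DNA repair gene Rad54l was the second, at 1.14 and 14.6 CPM in LT and at 8.25 and 0 in ST, where the young cells had no count. Rad54l passed without any 1 of the 9 mice, while Syk did not without old mouse 2, 3 or 2-2 or young mouse 2, 2-1 or 2-3. The share of cells labelled cycling moved with age in different directions. It was 3.85 to 14.7% in old and 12.5 to 26.3% in young LT, and 0 to 18.5% and 0 to 7.14% in ST. In MPP it was 55.2 to 60.9% in old and 23.1 to 35% in young mice. These comparisons were not fitted without cycling cells, so the part of cycling in them, Rad54l included, was not tested.

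For the 4 marker genes the difference between populations did not pass. Ehd3 was at 0.0322 and 1.07 CPM in old and young MPP and at 10.0 and 22.6 CPM in ST (difference from LT 7.48 and 3.97, edgeR adjusted p = 0.187 and 0.352). The values for Hk2 were 4.51 and 3.00 (0.116 and 0.369), for Anxa1 2.89 and 2.39 (0.399 and 0.416), and for Nupr1 3.20 and 2.49 (0.410 and 0.472). With the mouse as a block, since LT, ST and MPP came from the same mice, 15 genes passed against MPP and 5 against ST, and these held all 3 and 2 of the genes just named. Among the genes higher in old LT above, Stat5a (1.61 ± 0.23, edgeR adjusted p = 0.00707), Actg1 (0.71 ± 0.12, 0.0205) and Sdcbp, the syndecan-binding protein syntenin (0.75 ± 0.14, 0.0458), then passed against MPP, and Sdcbp (0.82 ± 0.14, 0.0485) also against ST. Parvg (-1.60 ± 0.29, edgeR adjusted p = 0.0324) passed against MPP in the lower direction. Hk2 stayed at 0.0688 against MPP in that fit. Some age differences were shared with the other populations. In the 27 sums without the block, Serinc3 was lower in old MPP (-1.41 ± 0.23, edgeR adjusted p = 0.00845) and old ST (-1.71 ± 0.23, 0.000544). Of the 41 genes called in LT, 30 had the same sign in MPP and 35 in ST, while the share over all genes was not counted.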

How the data were processed

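Single cells and pools of sorted LT, ST and MPP cells were sequenced by SMART-seq2. The authors deposited RSEM expected counts and TPM per gene and well, per the labels and the submitters' processing notes, which name build mm9. Aligner, annotation and tool versions are not given in the sources used here. The counts were whole numbers without molecular identifiers. Of 2112 columns per table, 914 of the count table and 1657 of the TPM table were not used. Wells were mapped to mouse, age, population, treatment and plate by their labels. The titles of plate 4 number mice and plate differently from the mouse labels, which were followed.

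Expected counts of the cells kept were summed per mouse and rounded. The 16 LT sums (stimulated 4 old and 5 young, unstimulated 4 old and 3 young mice) were fitted in one model of age and treatment with plate set as covariate, using edgeR 4.0.16 (R 4.3.3; TMM, filterByExpr, glmQLFit and glmQLFTest), with a call at a Benjamini-Hochberg adjusted p under 0.05 over all genes. LT, ST and MPP were compared in 27 stimulated sums, and pools in a fit of their own. The labels do not say how the mice were housed or sampled, so p-values refer to these mice only. The edgeR p-values set a difference against the spread between sums within groups, which also holds the sampling of cells. That spread was shared over groups, and a mouse could enter a fit with more than 1 sum. Detection shares used cells thinned to 50000 counts. Single values per mouse were tested by exact permutation over 126 splits. DESeq2 1.42.0 on counts and limma 3.58.1 on log2(mean TPM + 1) or + 0.1, with a TPM minimum of 5, were among the alternatives, with other scaling, filters, cells and mice left out. On simulated counts with the same design, 42 of 100 genes changed 4-fold and 6 of 100 changed 2-fold were recovered. That fit tested 12636 genes, the changed ones included, and made 2 false calls. The changed genes were drawn only from the more highly expressed part, at 4 or above in log2 CPM. No effect of plate set or treatment was simulated. Recovery of lower genes was therefore not measured, and smaller changes can be missed at this number of mice.

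The members and gene lists were chosen with earlier results of these data known. The named genes were the top 10 in each direction by log2 fold change, taken from called genes whose mean log2 CPM was 4 or more, the 4 markers, 15 genes of the response and of HSC ageing, up to 3 members of each list with the smallest p, and the 5 smallest p in the other comparisons. Sbno2, Actg1, Wdr1, Dstn, Zyx, Lims1, Sdcbp, and the genes named from the pools and from the unstimulated cells, were added after their values were seen. Adjustment of the detection shares over the named genes alone, first planned, was replaced by adjustment over all genes. Stimulated and unstimulated cells came from the same mouse in 7 cases, by the labels. The correlation of their deviations from the group means was 0.0736 to 0.245, and -0.136 to 0.0557 once the plate set was removed.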

Additional observations from a re-analysis of the deposited data

Results flagged for a closer look

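In 16 of the groups of 4 or 5 mice checked (10.4%), 1 mouse stood apart from the others. The cut-off gives about 1 in 20 only for independent, normally distributed values, which these are not, so no excess is read from this share. Among the genes, stimulated Nupr1 was highest at 99.7 CPM in young mouse 1, Plscr2 at 34.4 CPM in young mouse 2-3, Sla at 4.86 CPM in old mouse 3 and Il10 at 14.4 CPM in old mouse 2-3 and at 0.368 CPM in young mouse 2-1. Actg1 was lowest at 12593 CPM in old mouse 2, Ltb at 22.95 CPM in old mouse 2-2 and Poll at 12.7 CPM in old mouse 2-3. Genes near 0 in one age were highest in a single mouse: Matn4 and Ramp2 at 0.346 CPM each in young mouse 2, Rdh10 at 0.319 and Dsg2 at 0.0639 CPM in young mouse 3, and Arap3 at 0.157 CPM in old mouse 3. In these groups all other mice were at 0, so a flag was certain. The share of cells labelled cycling was lowest among young mice at 12.5% in mouse 2-3, the SD over cells of response genes detected was highest among old mice at 4.18 in mouse 3, and Rn45s took 25.9% of the counts in old mouse 2-3.

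The age difference differed with treatment or population for 6 genes by a test of the difference itself (edgeR adjusted p). Coq10b differed between stimulated and unstimulated LT by 7.57 on the log2 scale (0.0333). LT differed from MPP by -4.89 for Plac8 (0.0123), -9.49 for Slc35d3 (0.0155) and 2.55 for Smim3 (0.0155). LT differed from ST by -13.45 for Rad54l (0.00237) and -2.67 for Syk (0.0128). The values of Slc35d3 and Rad54l rest on a group with almost no counts and are no measure of size.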

How the results depend on the processing

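Of the 41 genes called in stimulated LT cells, 10 were called in every one of 21 alternatives other than the single plate sets (Actg1, Anxa1, Ehd3, Hk2, Inpp5d, Nupr1, Sbno2, Sdc4, Serinc3 and Wdr1), 26 lost the call without at least 1 mouse, and 0 changed sign. Counts of calls are given as percent of the genes tested. For age in stimulated cells (0.316%) the value was 3.39% with DESeq2, 1.45% with no filter, 0.781% on log2(mean TPM + 0.1), 1.05% on log2(mean TPM + 1), 0.151% without cycling cells, 0 within plate set A or B and 0.154 to 0.408% without 1 mouse. On the 9 stimulated sums alone it was 0.289%, and 16 of 40 called genes lost the call. Of the calls in the main fit 70.7% were higher in old cells, against 55.9% with DESeq2 and 46.7% and 51.5% on TPM. For age in unstimulated cells (0.0617%) it was 1.75% with DESeq2, 0.240 and 0.479% on log2(mean TPM + 0.1) and + 1, 0.367% on TPM without a filter, 0.184% at a mean log2 CPM of at least 4, 0.782% with no filter, 0.0308% without the plate set, 0.0238% without cycling cells and 0.0234 to 0.0777% without 1 mouse. For the difference between treatments (0.00771%) it was 1.47% with DESeq2, 0.0230% with cells labelled fewGenes or pctTrans kept and 0 on log2(mean TPM + 0.1). It was 0.0985% on TPM without a filter, 0.0395% at a mean log2 CPM of at least 4, 0.292% with no filter, and 0 to 0.0223% without 1 mouse. With the mouse as a replicate block, where the pairing is by the same mouse, it was 0, as on the same 7 mice without the block. Against MPP (0.0235%) it was 1.11% with DESeq2, 0.118% with the replicate block and 0 to 0.0395% without 1 mouse, and against ST (0.0157%) 1.21%, 0.0393% and 0.00761 to 0.0237%. In pools (0.927%) it was 1.40% without the second pool of old mouse 2 and 0.384 to 1.41% without 1 mouse. The fits on 1 plate set or 7 mice hold fewer samples, and the cause of the other changes was not tested.

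Named genes with non-overlapping detection shares numbered 25 in the main setting and 22 without cycling cells. With deeper thinning, a minimum of 5 counts or Rn45s removed they numbered 25 to 32. Without 1 mouse they numbered 25 to 33, a count that could only stay or rise, as leaving out a mouse cannot create overlap. The old minus young pairwise correlation was 0.0209 to 0.0427 without 1 mouse, and the share of cycling cells -8.79 percentage points over all single cells but plasma and -16.5 to -12.2 without 1 mouse. Among genes not called, the sign changed for Tlr4 (-1.36 on log2(mean TPM + 0.1), -0.13 on TPM + 1 with and without a filter, -0.71 to 1.51 without 1 mouse, lowest without old mouse 3), Tlr2 (-0.19 in plate set A, -0.19 to 0.33 without 1 mouse, below 0 without old mouse 2-2 or young mouse 2-3), Tnf (0.71 in plate set B) and Il6 (-0.69 in plate set B, -0.47 to 0.53 without 1 mouse, below 0 without old mouse 3 or young mouse 2). What limits the precision for these low transcripts was not tested.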
